A study of Mus musculus with 31 samples.

Results

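The miR-183, miR-96 and miR-182 cluster is a group of neighbouring miRNA hairpins that are processed from 1 primary transcript. Its members were taken by name from a small-RNA-seq table of mouse embryonic stem cells (mESCs): every miRNA whose name begins with miR-183, miR-96 or miR-182, which gave 6 mature miRNAs of 507, the 5p and the 3p arm of each of 3 hairpins. The cells were derivatives of the line ES-E14TG2a, cultured in 2i + LIF medium. The study asked what follows when the RNA-binding protein Trim71 can no longer bind the mRNA of Ago2, the Argonaute protein that carries mature miRNAs. It compared wild-type cells (WT), cells that lack, on both alleles, the stretch of the Ago2 3′UTR to which Trim71 binds (CLIPΔ), cells without Ago2 (Ago2 KO) and cells with both changes (Ago2 KO/CLIPΔ). The 4 groups had 4 small-RNA-seq libraries each, and RNA-seq libraries numbered 2 for WT, 2 for CLIPΔ, 4 for Ago2 KO and 4 for Ago2 KO/CLIPΔ. The paper uses the name WT for cells with a FLAG tag on both Trim71 alleles, and lists the other lines as FLAG-Trim71 cells too. These lines, WT included, were grown from single sorted cells after CRISPR/Cas9 editing. The clone behind each library is not given in the sources used here. An effect of the edit and of the clone thus cannot be told apart. WT and CLIPΔ small-RNA columns carry the letters A to D and both knockout groups the numbers 1 to 4.

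A primary miRNA transcript is cut in the nucleus into hairpins, each hairpin is cut in the cytoplasm into a duplex, and an Argonaute protein keeps 1 strand of it. The strand that is kept, often the 5p arm in this cluster, pairs through its seed (bases 2 to 8) with sites in the 3′UTR of mRNAs and lowers their translation and stability. The cluster is best known from sensory organs, such as the hair cells of the inner ear and the photoreceptors of the retina, and it is also abundant in stem cells and in many tumours. Foxo1, Foxo3 and Mitf mRNAs are among its known targets.

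The mature sequences are shown with the seed in capitals, since the seed decides which sites each member can pair with. They were taken from RefSeq (GRCm38.p6), which matched all 6 members.
miR-183-5p: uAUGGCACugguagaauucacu
miR-96-5p: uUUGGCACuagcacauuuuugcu
miR-182-5p: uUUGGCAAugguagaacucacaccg
miR-183-3p: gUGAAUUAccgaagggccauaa
miR-96-3p: cAAUCAUGuguagugccaauau
miR-182-3p: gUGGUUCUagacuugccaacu

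The seeds of the 5p arms are closely alike. Counted from 1 at the 5′ end, miR-183-5p and miR-96-5p differ within bases 1 to 8 by A2U, miR-96-5p and miR-182-5p by C8A, and miR-183-5p and miR-182-5p by both A2U and C8A. Without gaps, miR-183-5p and miR-182-5p were identical at 18 of 22 bases, while miR-183-5p and miR-96-5p shared 13 of 22 and miR-96-5p and miR-182-5p 12 of 23. The 3p arms have 3 different seeds. None of the 442 miRNAs of the table that matched a RefSeq sequence shared a seed with a member. Among 1679 mature mouse miRNAs of RefSeq, miR-1271-5p has the seed of miR-96-5p and miR-3475-5p that of miR-96-3p.

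All 3 hairpins lie on the minus strand of chromosome 6 (GRCm38.p6, the patched form of the mm10 build named by the submitters) within 3820 bp. In the direction of transcription they run from Mir183 (chr6:30169668-30169737) over Mir96 (chr6:30169446-30169551), 116 bp further on, to Mir182 (chr6:30165918-30165992), a further 3453 bp away. Each of them is inside the only intron (chr6:30159626-30173679) of a transcript of the long noncoding RNA gene Mirc35hg (chr6:30158640-30174125). The protein-coding genes of the RNA-seq table within 100 kb are Nrf1, on the opposite strand, and Ube2h. Of 498 Trim71 CLIP-seq peaks, 38 were on chromosome 6 and 0 were within 100 kb of the cluster.

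The small-RNA values were deposited in TPM (a share of the library corrected for length) and were rescaled to a sum of exactly 1000000 per library. How evenly different miRNAs were recovered was not tested, so comparisons between members below are comparisons of TPM. From the step size of the low values, WT libraries held 5232467 to 8117123 reads on the miRNAs with a known length, CLIPΔ libraries 2989610 to 7597245, Ago2 KO libraries 783645 to 1004104 and Ago2 KO/CLIPΔ libraries 831163 to 1259728. The libraries of the cells without Ago2 were thus shallower in each case, and the column marks change with the Ago2 genotype as well, so that loss of Ago2 and any difference in library preparation cannot be told apart. Ago2 mRNA, the check of the genotype, was at 28.2 and 21.6 TPM in WT, 27.3 and 20.3 TPM in CLIPΔ and 1.51 to 2.87 TPM in the 8 knockout libraries. The 6 measured of 7 mESC markers summed to 5005 to 6084 TPM in every library. Markers of other cell types were low beside these. Their sums were at most 6.40 TPM for primitive endoderm (4 of 4 measured) and 2.23 TPM for neural cells (2 of 3). For sensory cells (1 of 4) they reached 3.42 TPM and for fibroblasts (4 of 4) 6.68 TPM.

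The cluster made up a large share of the miRNAs of these cells, and 2 of its members carried nearly all of it. The 6 members together took 13.2% ± 0.80 (SD, n = 4) of the miRNA TPM in WT, 11.2% ± 0.69 in CLIPΔ, 9.74% ± 0.53 in Ago2 KO and 7.78% ± 0.20 in Ago2 KO/CLIPΔ, with n = 4 in each. These shares did not overlap between groups: the lowest WT library had 12.5% and the highest CLIPΔ library 12.1%. The highest Ago2 KO library, with 10.2%, was below the lowest CLIPΔ library, with 10.5%. The total includes let-7 and miR-98, and shares of a total without them were not computed. With such totals the difference between CLIPΔ and WT (log2) was -0.35 instead of -0.43 for miR-182-5p, and 0.08 instead of -0.005 for miR-183-5p. miR-182-5p alone held 7.17% of the TPM in WT and miR-183-5p 5.89%.

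**Figure D1:**
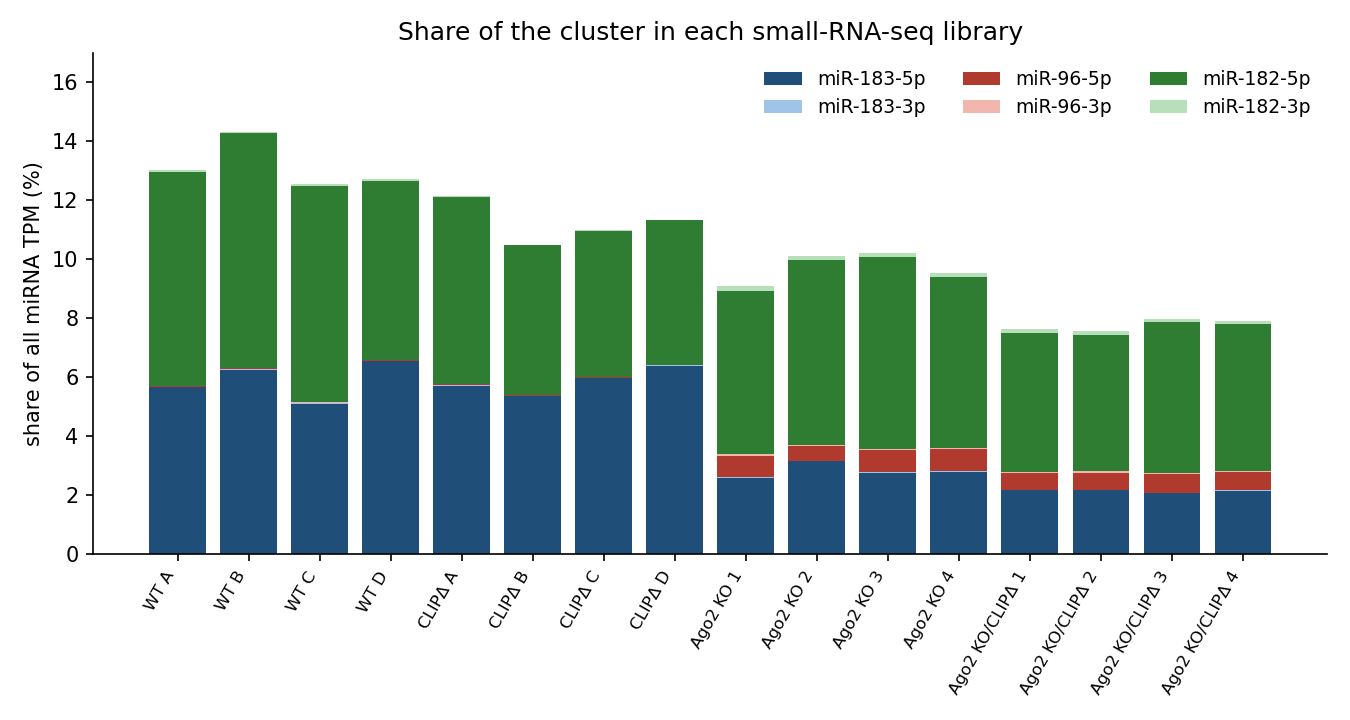
Share of all miRNA TPM (%, vertical axis) taken by each of the 6 members, stacked, in each of the 16 small-RNA-seq libraries. The bars for miR-183-5p and miR-182-5p fill most of each column, and miR-96-5p is wide enough to be seen only in the 8 libraries without Ago2.

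miR-183-5p and miR-182-5p, the abundant guide strands, ranked among the first 11 miRNAs of the table in every library. miR-183-5p was at 56582, 62516, 51090 and 65496 TPM in WT libraries A to D, and at 57208, 53578, 59710 and 63839 TPM in CLIPΔ libraries A to D. Its values were 25990, 31666, 27669 and 28056 TPM in Ago2 KO libraries 1 to 4, and 21655, 21862, 20811 and 21626 TPM in Ago2 KO/CLIPΔ. WT and CLIPΔ overlapped, all 8 knockout libraries lay below them, and every Ago2 KO/CLIPΔ library lay below every Ago2 KO library.

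miR-182-5p was at 72694, 79820, 73358 and 60867 TPM in WT and at 63443, 50680, 49541 and 49070 TPM in CLIPΔ. The Ago2 KO libraries had 55451, 62787, 64953 and 57789 TPM, and the Ago2 KO/CLIPΔ libraries 47206, 46066, 51106 and 49766 TPM. By mean level the order was WT, Ago2 KO, CLIPΔ and Ago2 KO/CLIPΔ, and each group overlapped with the next in this order. CLIPΔ library A stood above the other 3 CLIPΔ libraries and within the range of WT.

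miR-96-5p, which shares most of its seed with both of these, was about 2 orders of magnitude below them in cells with Ago2. It was at 218.8, 292.5, 163.7 and 134.3 TPM in WT libraries A to D, and at 173.8, 306.3, 124.4 and 85.82 TPM in CLIPΔ libraries A to D. In both groups library B was highest and library D lowest, and the ranges overlapped. In Ago2 KO libraries 1 to 4 it was at 7225, 4887, 7463 and 7431 TPM, and in Ago2 KO/CLIPΔ at 5690, 5741, 6264 and 6243 TPM, far above all WT and CLIPΔ values. Its rank among the 507 miRNAs was 148 to 242 in the 8 libraries with Ago2 and 28 to 39 in the 8 without.

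The 3p arms, usually the strand that is discarded, were rarer. miR-182-3p was at 481.1, 315.4, 584.2 and 549.4 TPM in WT and at 264.6, 124.8, 369.7 and 260.6 TPM in CLIPΔ. Within each letter the CLIPΔ library was below the WT library, although the groups overlapped. The Ago2 KO libraries had 1565, 1327, 1416 and 1645 TPM and the Ago2 KO/CLIPΔ libraries 1454, 1429, 1226 and 1134 TPM, which were higher than any library with Ago2.

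miR-96-3p was at 89.65, 67.84, 55.31 and 39.65 TPM in WT and at 49.97, 41.91, 30.92 and 20.20 TPM in CLIPΔ. It was at 537.0, 488.7, 466.8 and 485.2 TPM in Ago2 KO and at 456.5, 424.4, 345.9 and 331.9 TPM in Ago2 KO/CLIPΔ. Every library without Ago2 was above every library with it, and all Ago2 KO/CLIPΔ values were below all Ago2 KO values.

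miR-183-3p went the other way, like the 5p arm of its hairpin. Its levels were 218.8, 217.5, 168.6 and 219.4 TPM in WT and 199.6, 167.6, 187.9 and 225.4 TPM in CLIPΔ. In Ago2 KO they were 102.8, 131.9, 114.8 and 121.9 TPM, and in Ago2 KO/CLIPΔ 88.07, 105.0, 95.06 and 93.85 TPM. WT and CLIPΔ overlapped, as did both knockout groups, and all knockout values were below the others. miR-183-3p rested on 76 to 139 reads per library in the cells without Ago2, the fewest of any member there.

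**Figure D2:**
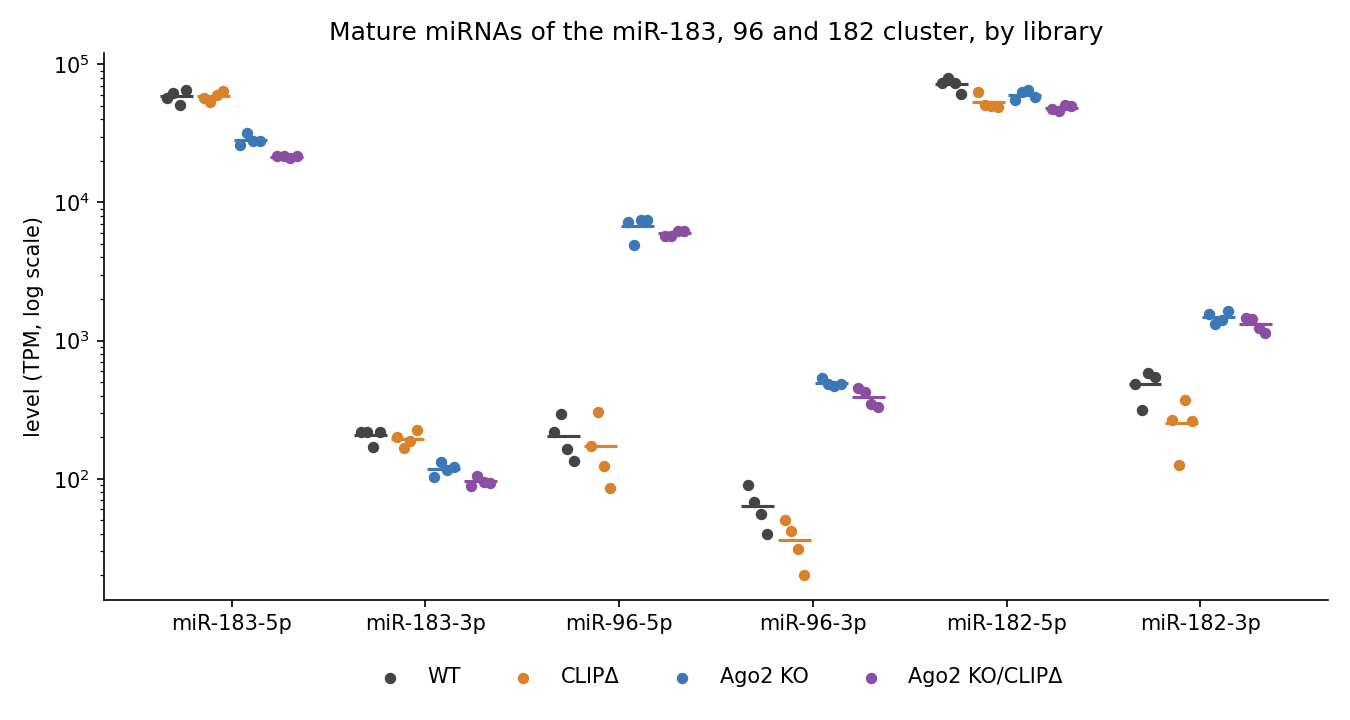
Level of each member (TPM, log scale) in the 16 small-RNA-seq libraries, with a point for each library in replicate order and a line at the mean of each group. Both miR-96 arms and miR-182-3p are highest in the 8 libraries without Ago2, both miR-183 arms are lowest there, and miR-182-5p differs least between groups.

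To ask what the deletion in the Ago2 3′UTR changed, CLIPΔ was compared with WT (limma on log2(TPM + 1), Benjamini-Hochberg adjustment over all miRNAs with a mean of at least 100 TPM). miR-182-5p was the only member past the threshold of 0.05, and it was lower in CLIPΔ. Over 227 miRNAs tested, 63 or 27.8% passed and 19 or 8.37% were lower. After centring on the median miRNA the share of calls that were higher went from 69.8% to 53.3%. miR-182-5p fell by 0.43 ± 0.14 (log2, SE, limma adjusted p = 0.0432), to 0.741 of its WT level. Neither arm of Mir183 passed: the differences were -0.00 ± 0.13 for miR-183-5p (limma adjusted p = 0.983, 95% interval -0.29 to 0.28) and -0.08 ± 0.18 for miR-183-3p (limma adjusted p = 0.754). miR-96-5p differed by -0.32 ± 0.39 (limma adjusted p = 0.568), with a 95% interval from -1.19 to 0.54 that leaves room for a sizeable change in either direction. miR-96-3p, at a mean below 100 TPM, was not tested.

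miR-182-3p had the largest difference of the 5 members tested in this comparison, -0.98 ± 0.34 (limma adjusted p = 0.0543). With the replicate letter as a block it passed the threshold (limma adjusted p = 0.000287), while 125 or 55.1% of all miRNAs then passed and 21.1% were lower. The call of miR-182-5p was close to the threshold. It was lost when WT A, WT B, WT C, CLIPΔ B, CLIPΔ C or CLIPΔ D was left out (limma adjusted p = 0.0569 to 0.129), with library totals taken without let-7 and miR-98 (limma adjusted p = 0.0949), without the filter on low levels (limma adjusted p = 0.0675) and without the intensity trend of the fit (limma adjusted p = 0.0891). miR-182-3p also passed without the filter, after median centring and with totals taken without the cluster. In the model of all 4 groups it passed too (limma adjusted p = 0.00533 to 0.0475 over these settings). It did not pass with totals taken without let-7 and miR-98 (limma adjusted p = 0.0720). With single libraries left out it passed in 2 of 8 fits (limma adjusted p up to 0.139), as did miR-182-5p.

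The same deletion was then compared in cells without Ago2. Here 3 members were lower in Ago2 KO/CLIPΔ than in Ago2 KO, beside 121 or 52.2% of 232 miRNAs that passed in either direction and 30.6% that were lower. miR-183-5p fell by 0.40 ± 0.07 (limma adjusted p = 0.000291) and miR-182-5p by 0.31 ± 0.07 (limma adjusted p = 0.00164). miR-96-3p fell by 0.35 ± 0.12 (limma adjusted p = 0.0226), a call that was lost when Ago2 KO 1, Ago2 KO/CLIPΔ 3 or Ago2 KO/CLIPΔ 4 was left out (limma adjusted p = 0.0624 to 0.0814) and in the model of all 4 groups (limma adjusted p = 0.370). The median difference of all 232 miRNAs was -0.17, which is smaller than each of these values.

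miR-183-3p differed by -0.30 ± 0.13 (limma adjusted p = 0.0619) and passed once the replicate number was a block (limma adjusted p = 0.0337), where 62.1% of all miRNAs passed and 40.5% were lower. miR-182-3p differed by -0.19 ± 0.11 (limma adjusted p = 0.152) and miR-96-5p by -0.15 ± 0.12 (limma adjusted p = 0.291, 95% interval -0.41 to 0.10). miR-96-5p passed without Ago2 KO library 2, its lowest library (difference -0.30, limma adjusted p = 0.000986).

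Whether the deletion acted differently with and without Ago2 was tested as an interaction in 1 model of all 16 libraries, in which 123 or 49.4% of 249 miRNAs passed, and 26.5% had a more negative difference without Ago2. miR-183-5p was the only member among them, with a difference between the effects of -0.39 ± 0.14 (limma adjusted p = 0.0231). This call was lost when each library was centred on its median miRNA (-0.27, limma adjusted p = 0.222) and without WT library C (-0.32, limma adjusted p = 0.0570). The interaction of miR-182-5p was 0.12 ± 0.15 (limma adjusted p = 0.545, 95% interval -0.19 to 0.43). With replicates as blocks, miR-182-3p (0.79 ± 0.18, limma adjusted p = 0.00137) and miR-96-3p (0.46 ± 0.17, limma adjusted p = 0.0279) passed too, beside 64.7% of all miRNAs, 28.9% upward and 35.7% downward. miR-96-3p entered this model only through the libraries without Ago2, since its WT and CLIPΔ levels were below 100 TPM.

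Loss of Ago2 went with far larger differences, in opposite directions within the cluster. In Ago2 KO against WT, 206 or 82.7% of 249 miRNAs passed, 47.4% higher and 35.3% lower, so a call alone sets no member apart. miR-96-5p rose by 5.09 ± 0.31 (limma adjusted p = 8.33e-11), 34.2-fold, which was the second largest increase of the 249. miR-96-3p rose by 3.01 ± 0.26 (limma adjusted p = 7.74e-09) and miR-182-3p by 1.66 ± 0.26 (limma adjusted p = 1.33e-05). For miR-96-3p the same limit holds, that it entered the test through its levels without Ago2.

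The Mir183 arms fell together, miR-183-5p by 1.05 ± 0.10 (limma adjusted p = 1.79e-08) and miR-183-3p by 0.80 ± 0.14 (limma adjusted p = 5.45e-05). miR-182-5p fell by 0.25 ± 0.10 (limma adjusted p = 0.0351), which was lost when Ago2 KO 1, Ago2 KO 4, WT A, WT B or WT C was left out (limma adjusted p = 0.0716 to 0.119), without the filter on low levels (limma adjusted p = 0.0660) and without the intensity trend of the fit (limma adjusted p = 0.0797). The median difference over all miRNAs tested was 0.37, so that miR-182-5p and both Mir183 arms fell further against the bulk of the table than against the total. With libraries centred on their median miRNA, miR-182-5p fell by 0.51 (limma adjusted p = 0.000466) and miR-96-5p rose by 4.83.

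In the edited background, Ago2 KO/CLIPΔ against CLIPΔ, 207 or 83.1% of 249 miRNAs passed, 47.8% higher and 35.3% lower. miR-96-5p rose by 5.26 ± 0.31, miR-96-3p by 3.47 ± 0.26 and miR-182-3p by 2.45 ± 0.26 (limma adjusted p at most 9.74e-08), and miR-183-5p fell by 1.44 ± 0.10 and miR-183-3p by 1.02 ± 0.14 (limma adjusted p at most 3.20e-06). miR-182-5p differed by -0.12 ± 0.10 (limma adjusted p = 0.268), although it passed after centring on the median miRNA (-0.26, limma adjusted p = 0.0376). No control library is shared with the comparison against WT, but both rest on the same fit and on the same split into shallower and deeper libraries.

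**Figure D3:**
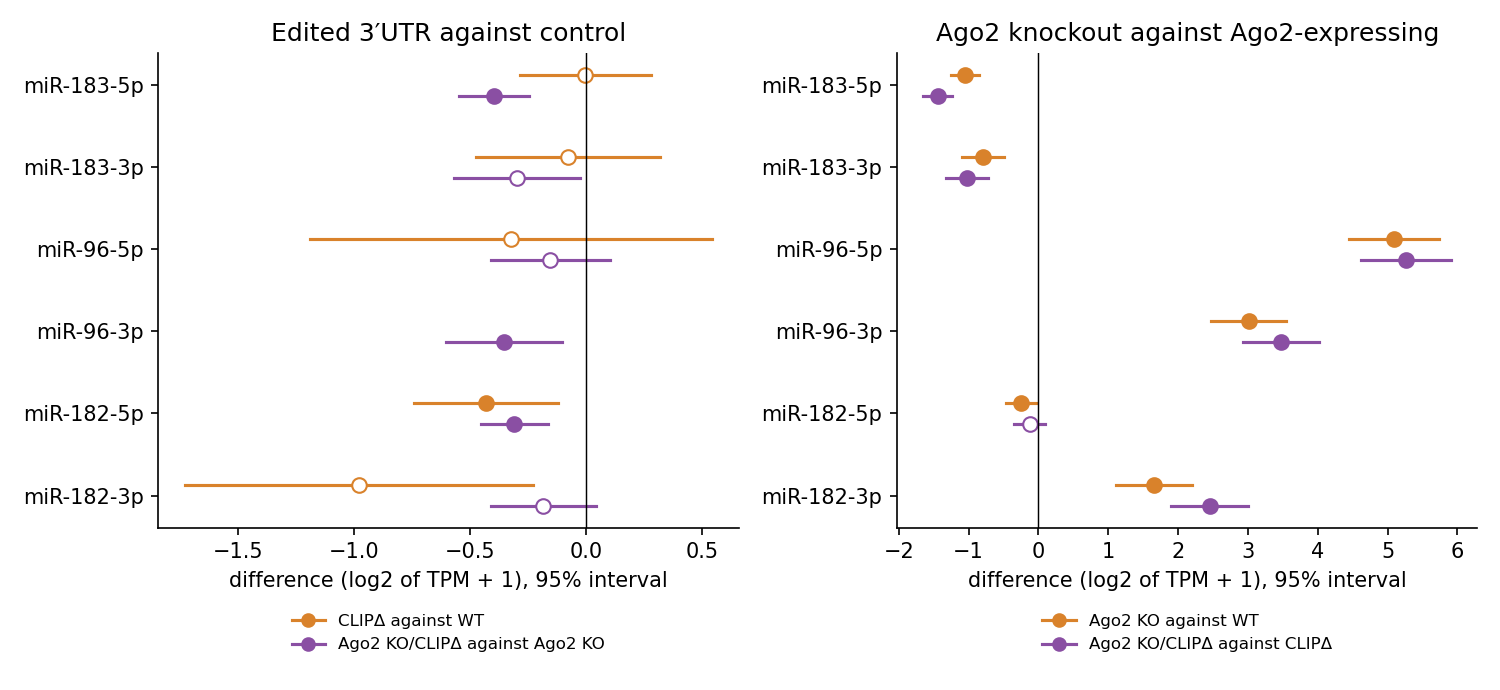
Difference of each member between groups (log2 of TPM + 1, limma, with 95% intervals), left for the edited 3′UTR and right for loss of Ago2. Filled points passed an adjusted p of 0.05 and open points did not; the scale of the right panel is wider, and miR-96-5p lies above 5 in both of its comparisons.

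Members of 1 transcript thus stood in different proportions in the groups. miR-182-5p was 1.23 ± 0.21 times as abundant as miR-183-5p in WT, 0.913 ± 0.15 times in CLIPΔ, 2.13 ± 0.16 times in Ago2 KO and 2.26 ± 0.15 times in Ago2 KO/CLIPΔ (SD, n = 4 each). All 8 knockout libraries were at 1.98 or above and all others at 1.44 or below. The ratio of miR-183-5p to miR-96-5p was 318 ± 120 in WT and 432 ± 242 in CLIPΔ, but 4.39 ± 1.39 in Ago2 KO and 3.60 ± 0.25 in Ago2 KO/CLIPΔ.

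The arms of a hairpin come from 1 precursor, so their ratio shows which strand was found more often. miR-96-5p was 3.27 ± 0.79 times as abundant as miR-96-3p in WT and 13.7 ± 2.68 times in Ago2 KO, miR-182-5p was 160 ± 64.2 times as abundant as miR-182-3p in WT and 40.9 ± 6.56 times in Ago2 KO, and miR-183-5p 287 ± 19.9 and 241 ± 9.29 times as abundant as miR-183-3p. In Ago2 KO against WT the 5p/3p ratio of miR-96 rose by 2.09 ± 0.26 (log2, limma adjusted p = 9.29e-07) and that of miR-182 fell by 1.90 ± 0.30 (limma adjusted p = 1.46e-05). The ratio of miR-183 differed by -0.25 ± 0.13 (limma adjusted p = 0.0870), and passed with a pseudocount of 10 (limma adjusted p = 0.0159) or over hairpins whose arms each reached 100 TPM (limma adjusted p = 0.00615). Among 132 hairpins with both arms measured 106 or 80.3% passed, 28.8% with a higher and 51.5% with a lower ratio, and the median difference was -0.85.

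The deletion in the Ago2 3′UTR gave no such call. Of 122 hairpins compared between CLIPΔ and WT, 0 or 0% passed by limma, with 7 at an unadjusted p below 0.05, and of 124 compared between Ago2 KO/CLIPΔ and Ago2 KO, 0 or 0% passed, with 4 at an unadjusted p below 0.05. The largest difference within the cluster was that of miR-182 in CLIPΔ, 0.55 ± 0.36 (limma adjusted p = 0.773), and with the replicate letter as a block 5 or 4.1% of hairpins passed, miR-182 not among them (limma adjusted p = 0.132).

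**Figure D4:**
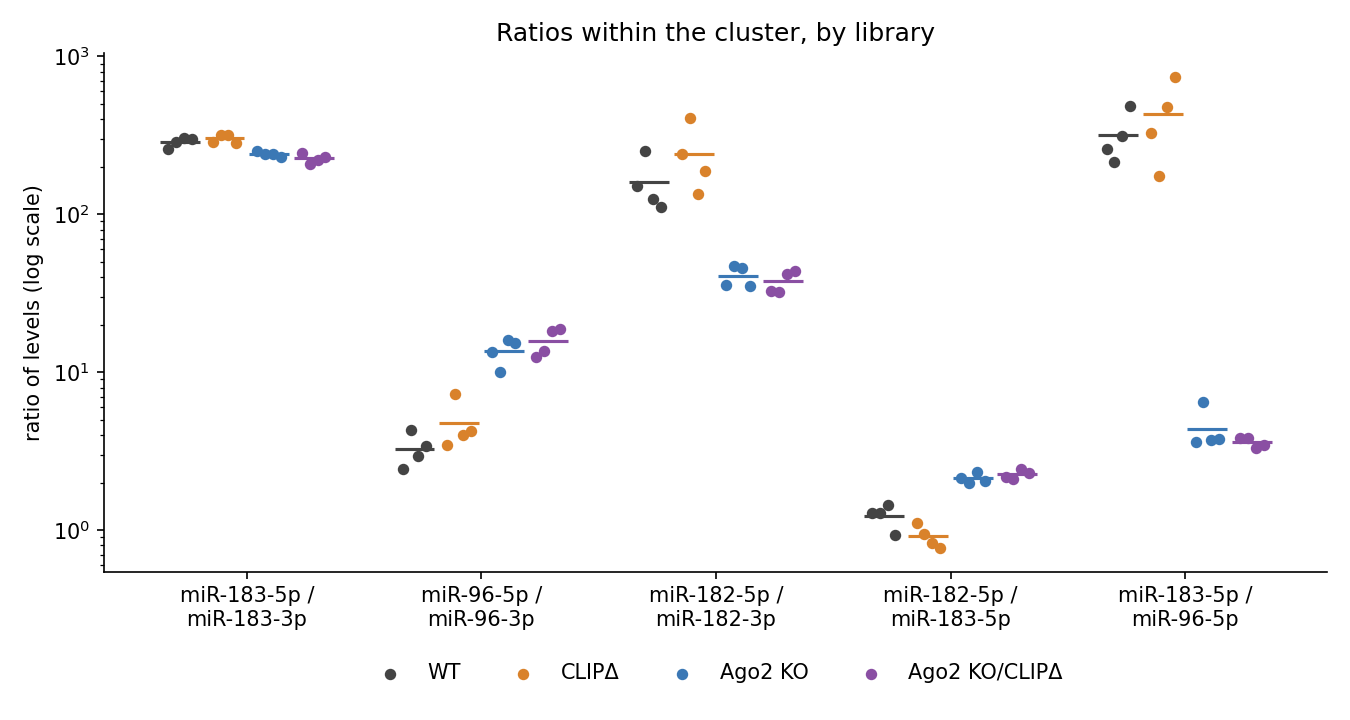
Ratios of levels within the cluster (log scale) in the 16 small-RNA-seq libraries, with a point for each library and a line at the mean of each group. The 5p/3p ratio is higher without Ago2 for miR-96 and lower for miR-182, and the ratio of miR-183-5p to miR-96-5p drops from 175 or more to 6.48 or less.

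Some miRNAs outside the cluster followed a member over the 16 libraries, chosen by the highest Pearson's r of log2 levels. Since the libraries fall into 2 sets by Ago2 genotype, r is given only within the 8 libraries of each set. For miR-183-5p the 3 nearest were miR-221-3p (r = 0.48 with and 0.93 without Ago2), miR-291a-5p (0.52 and 0.89) and miR-294-3p (0.38 and 0.84), and miR-183-3p had the same nearest miRNAs. For miR-96-5p they were miR-293-3p (0.79 and 0.92), miR-27a-3p (0.64 and 0.93) and miR-381-3p (0.94 and -0.11), and for miR-96-3p miR-27a-5p, miR-145a-3p and miR-7a-5p. The nearest to miR-182-5p were miR-302d-3p (0.83 and 0.46), miR-32-3p and miR-181d-5p, and to miR-182-3p miR-195a-3p, miR-503-5p and miR-335-5p. Within the cluster, miR-183-5p and miR-183-3p had an r of 0.83 and 0.91, miR-96-5p and miR-96-3p 0.74 and 0.17, and miR-183-5p and miR-182-5p -0.18 and 0.89. For the pair of abundant guides r was high in the set without Ago2 and near 0 in the other, a difference between the sets that was not tested. Each set holds 2 groups, so r also takes in differences between these groups. Both abundant guides were lower in Ago2 KO/CLIPΔ than in Ago2 KO, and r within single groups was not computed.

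RNA-seq measured the host transcript and its neighbours. Mirc35hg, which was added after its values were seen, was at 1.97 and 1.27 TPM in WT, 2.12 and 1.02 TPM in CLIPΔ, 2.57, 2.23, 2.71 and 2.80 TPM in Ago2 KO and 2.38, 2.78, 2.73 and 2.60 TPM in Ago2 KO/CLIPΔ. All 8 knockout values were above the other 4. Mirc35hg rose by 0.46 ± 0.17 in Ago2 KO against WT (limma adjusted p = 0.0338), beside 56.4% of 11287 genes that passed, and the call was lost without Ago2 KO 1, Ago2 KO 3, Ago2 KO 4 or WT 2 (limma adjusted p = 0.0585 to 0.275). It differed by -0.05 ± 0.29 in CLIPΔ against WT (limma adjusted p = 1.00) and by 0.02 ± 0.08 in Ago2 KO/CLIPΔ against Ago2 KO (limma adjusted p = 0.925, 95% interval -0.16 to 0.20), the comparison in which miR-183-5p and miR-182-5p were lower. These are levels of a spliced RNA and do not measure how much of its intron was made.

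Nrf1, a transcription factor for mitochondrial genes, was at 13.4 to 14.0 TPM in WT and CLIPΔ and at 9.81 to 10.9 TPM in the knockout libraries. Ube2h, an E2 ubiquitin-conjugating enzyme, was at 4.35 and 3.23 TPM in WT and 2.05 to 2.44 TPM in Ago2 KO. In Ago2 KO against WT, Nrf1 fell by 0.35 ± 0.08 (limma adjusted p = 0.00451) and Ube2h by 0.56 ± 0.15 (limma adjusted p = 0.00792), while the median over all genes was -0.26. Neither passed after libraries were centred on their median gene (limma adjusted p = 0.976 and 0.186), and Ube2h was lost without WT 1 (limma adjusted p = 0.111).

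The next question was how mRNAs that the cluster can pair with stood in the same cells. For this, 3′UTRs were searched on the mRNA strand for the 8-base match of each 5p seed. Such a match is the reverse complement of bases 2 to 8 followed by A. The match is GTGCCATA for miR-183-5p, GTGCCAAA for miR-96-5p and TTGCCAAA for miR-182-5p, and 256 (1.80%), 421 (2.97%) and 686 (4.84%) of 14184 genes with a 3′UTR had at least 1 of them. No 8-base match of 1 member is that of another, and 88 genes held matches of 2 or more. Of 31 genes described in the literature as targets of the cluster, 30 were in the RNA-seq table and 14 of those had a match. Sites are shown for 4 genes of that list whose mRNA passed a test below, with the match in capitals, as places where these seeds can pair.
Foxo1 site for miR-96-5p (GRCm38, chr3:52347226-52347248, plus strand): aatcattacaatgaaGTGCCAAA
Foxo1 site for miR-182-5p (chr3:52350865-52350889, plus strand): tggcagtgtgtttgctcTTGCCAAA
Mitf site for miR-96-5p (chr6:98019979-98020001, plus strand): tatattttactgacaGTGCCAAA
Mitf site for miR-182-5p (chr6:98020924-98020948, plus strand): taccaaaccttctgactTTGCCAAA
Kif2a site for miR-183-5p (chr13:106961492-106961513, minus strand): taattttgcaggatGTGCCATA
Ppp2ca site for miR-183-5p (chr11:52122094-52122115, plus strand): acggaccaaaagatGTGCCATA
All 6 lie in 1 exon of the 3′UTR of a GENCODE transcript (GRCm38). A match is a description of sequence and was not tested for pairing.

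In Ago2 KO against WT, target mRNAs of the cluster were mostly lower. Of the 31 literature targets 24 were above a mean of 1 TPM and could be tested, and 17 of them fell and 0 rose, while 42.4% of all 11287 genes fell and 14% rose. Their median difference was -0.64 on the log2(TPM + 1) scale beside -0.26 for all genes. Their median 3′UTR had 2089 bases, beside 986 bases over genes without an 8-base match, and the part of this length was not tested. Scaling mattered here: after centring on the median gene, 60% of all calls were higher instead of 24.8%. Of all 11287 genes 2371 were then lower and 3559 higher. Of the 24 literature targets 11 were lower and 3, among them Adcy6 and Srsf2, were higher.

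Egr1, an immediate-early transcription factor, had the largest fall of the list, 7.24 ± 1.27 (limma adjusted p = 0.000727). It was at 2481 and 68.3 TPM in WT and at 1.10 to 2.49 TPM in Ago2 KO, so that the WT libraries differed from each other by more than an order of magnitude. Rev1, a translesion DNA polymerase, fell by 1.30 ± 0.29 (limma adjusted p = 0.00288), a call lost without WT 1 (limma adjusted p = 0.0576).

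Mitf, the melanocyte transcription factor whose 3′UTR holds sites for miR-96-5p and miR-182-5p, was at 6.18 and 3.02 TPM in WT and 1.20 to 1.47 TPM in Ago2 KO, and fell by 1.21 ± 0.22 (limma adjusted p = 0.000836). Kif2a, a microtubule-depolymerising kinesin with a site for miR-183-5p, was at 16.5 and 15.3 TPM in WT and 6.19 to 7.14 TPM in Ago2 KO, and fell by 1.14 ± 0.12 (limma adjusted p = 5.03e-05). Bmi1, a Polycomb component with no 8-base match, fell by 1.21 ± 0.21 (limma adjusted p = 0.000777). Foxo1, a forkhead transcription factor and the best-known target of these seeds, was at 6.57 and 5.55 TPM in WT and 3.82 to 5.18 TPM in Ago2 KO, and fell by 0.36 ± 0.13 (limma adjusted p = 0.0338). That call was lost without Ago2 KO 3, Ago2 KO 4 or WT 1 (limma adjusted p = 0.0769 to 0.239) and after centring on the median gene.

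Other genes of the list that fell included the initiator caspase Casp2, the DNA repair gene Brca1, the glutamate transporter Slc1a1, the deubiquitinase Cyld, the actin-binding protein gene Mtss1, the translation inhibitor Pdcd4, the integrin subunit Itgb1, the membrane-cytoskeleton linker Ezr, the pluripotency factor Klf4 and the TGF-beta signal transducer Smad4. Among the list genes named as lower, Egr1, Bmi1, Brca1, Cyld, Pdcd4, Itgb1, Klf4 and Smad4 had no 8-base match. Mitf, Kif2a, Foxo1, Rev1, Casp2, Slc1a1, Mtss1 and Ezr had a match. Adcy6, higher after centring, had 2 of miR-96-5p and 2 of miR-182-5p, and Srsf2 had none. Ezr, Klf4, Itgb1, Smad4 and Pdcd4 did not pass after centring. Itgb1 and Smad4 were also lost without WT 1 (limma adjusted p = 0.114 and 0.159).

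Genes grouped by their 8-base matches showed the same order. In Ago2 KO against WT the median difference was -0.37 over 189 genes with a match of miR-183-5p, -0.46 over 319 genes with a match of miR-96-5p and -0.42 over 496 genes with a match of miR-182-5p. It was -0.59 over 64 genes with matches of 2 or more and -0.23 over 9893 genes with none. The genes with any match had a median 3′UTR of 2403 bases and those without 986 bases. Across 10830 genes, which are not independent replicates, the log10 length of the 3′UTR and the difference had an r of -0.27. The part of 3′UTR length in these medians was not tested.

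In CLIPΔ against WT, 0 or 0% of 11642 genes passed in RNA-seq by limma with 2 libraries a group, and 604 had an unadjusted p below 0.05. Klf4 had the largest difference among the 24 literature targets, -0.57 ± 0.17 (limma adjusted p = 0.811), with 1246 and 1076 TPM in WT and 825.0 and 731.3 TPM in CLIPΔ, which did not overlap. Rarg, a retinoic acid receptor, differed by -0.46 ± 0.21 and Egr1 by -0.44 ± 2.18, which turned to 2.15 without WT 1 and to 1.96 without CLIPΔ 2. The median was -0.09 over the literature targets and -0.05 over all genes, and it lay between -0.08 and -0.04 in each of the groups with matches.

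In Ago2 KO/CLIPΔ against Ago2 KO, 353 or 3.22% of 10956 genes passed, 0.986% higher and 2.24% lower, and 2 of the 24 literature targets were among them. After centring on the median gene, 50% of all calls were higher instead of 30.6%, and Ppp2ca no longer passed (limma adjusted p = 0.144). Pdcd4 rose by 0.40 ± 0.09 (limma adjusted p = 0.0433), from 1.51 to 1.97 TPM in Ago2 KO to 2.26 to 2.83 TPM in Ago2 KO/CLIPΔ. Ppp2ca, the catalytic subunit of protein phosphatase 2A with a site for miR-183-5p, fell by 0.28 ± 0.06 (limma adjusted p = 0.0360), from 122 to 137 TPM to 102 to 109 TPM. The groups did not overlap for either gene, yet each call was lost whichever single library was left out (limma adjusted p = 0.0505 to 0.119). With the replicate number as a block 804 or 7.34% of genes passed, 4.91% lower, with 4 literature targets, Egr1, Ppp2ca, Rarg and Srsf2, all lower, while Pdcd4 no longer passed (limma adjusted p = 0.0622).

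The other large differences of the list, Egr1 (-0.56 ± 0.17, limma adjusted p = 0.107) and Slc1a1 (0.34 ± 0.13, limma adjusted p = 0.188), did not pass without the block. Over the genes with matches the median difference was -0.04 for miR-183-5p, -0.04 for miR-96-5p and -0.05 for miR-182-5p, beside -0.05 for all genes.

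**Figure D5:**
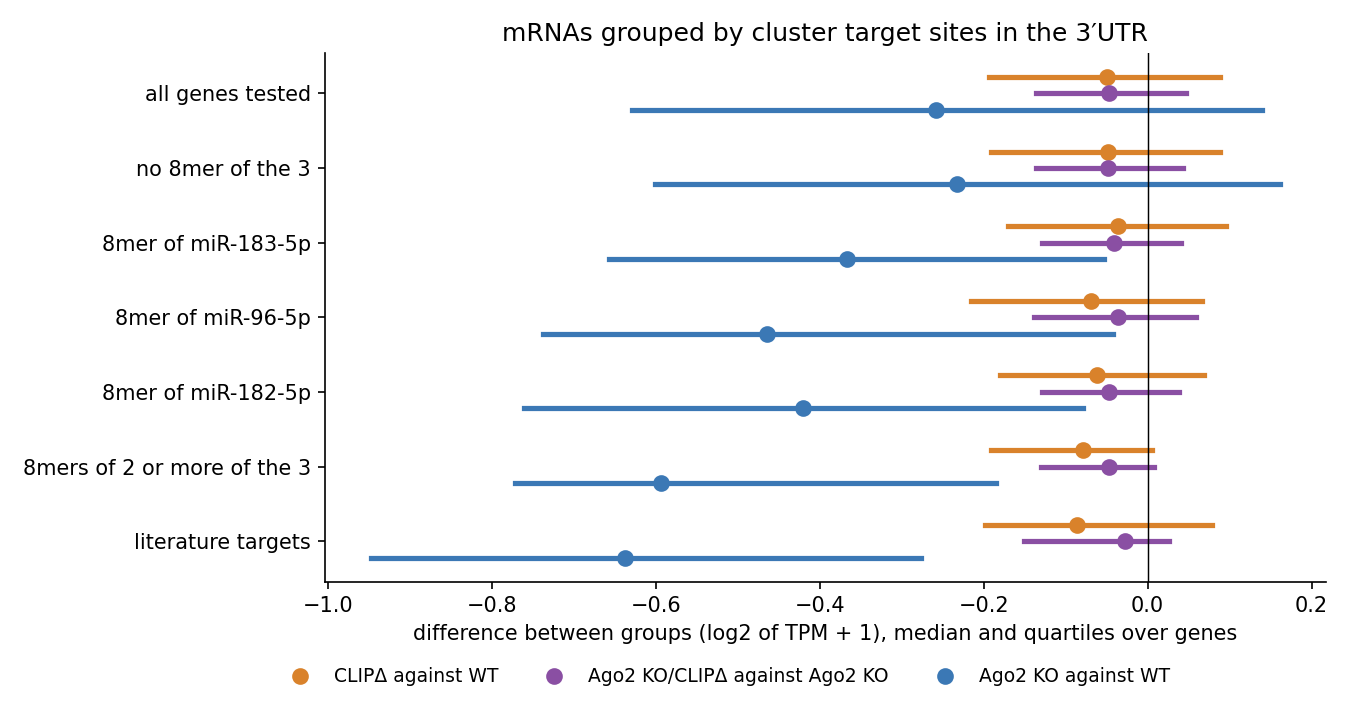
Difference in mRNA level between groups (log2 of TPM + 1) for genes grouped by the target sites in their 3′UTR, with the median as a point and the quartiles as a bar over genes. In Ago2 KO against WT the median moves from -0.23 without a match to -0.59 with matches of 2 or more, while the other comparisons stay between -0.09 and -0.03 throughout.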

How the data were processed

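Small-RNA-seq and RNA-seq of mESCs were analysed from tables of TPM values deposited by the authors, who mapped reads to mm10 with HISAT2 2.1.0, counted them with HTSeq on the longest transcript of each gene and converted the counts to TPM. The submitters' notes also name CASAVA 1.4, cutadapt, SAMtools and edgeR. CLIP-seq peaks carried the authors' read counts per peak, in 1 list for both replicates, and were used for position only. Every miRNA and gene in the tables is above 0 in every library, so those without reads in some library are not in them. The code in the column names of CLIPΔ was read by elimination, and the letters A to D were not matched to sample numbers.

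Small-RNA TPM were rescaled to 1000000 per library. Differences were tested with limma 3.58.1 (R 4.3.3) on log2(TPM + 1) with an intensity trend, over miRNAs with a mean of at least 100 TPM, hairpins whose arms each reached a mean of 10 TPM, or genes whose mean reached 1 TPM. Adjusted p-values (Benjamini-Hochberg) under 0.05 were called. The comparisons of CLIPΔ with WT and of Ago2 KO/CLIPΔ with Ago2 KO used the libraries of those groups, and the others 1 model of all 4 groups. Labels call the samples biological replicates. Read numbers were inferred from the smallest step of TPM times length in each library, over 442 miRNAs, at a tolerance of 0.02 reads. The scripts were tested on simulated data.

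Named were the 6 members, miRNAs sharing a seed, for each member the 3 miRNAs with the highest r, coding genes within 100 kb, Ago2, and literature targets that passed a test or had 1 of the 3 largest differences in a comparison. Some genes of the target list are counted but not reported by name here. The members and lists were chosen with earlier results of these data known. Same-marked WT and CLIPΔ libraries deviated together in small-RNA-seq (r of 0.35 to 0.74, beside -0.69 to 0.31 for different marks). Between the knockout groups the same mark gave r of 0.16 to 0.52 in small-RNA-seq and 0.32 to 0.43 in RNA-seq. Different marks there gave -0.53 to 0.60 and -0.45 to 0.47, so some differently numbered knockout libraries were as alike as same-numbered ones. Marks were used as blocks in an alternative fit.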

Additional observations from a re-analysis of the deposited data

Results flagged for a closer look

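The difference that the 3′UTR deletion made to miR-183-5p was lower in cells without Ago2 than in cells with Ago2. The difference between the effects was -0.39 (log2), by an interaction test in limma (adjusted p = 0.0231). It did not hold after centring on the median miRNA, without a low-level filter, without the intensity trend or without WT library C.

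In 5 of 96 sets of 4 libraries checked, 1 library stood apart from the other 3 by more than Dixon's 95% limit for the gap over the range, where chance gives about 1 in 20. For miR-182-5p this was CLIPΔ library A, at 63443 TPM. For miR-183-3p it was WT library C, at 168.6 TPM, and for miR-96-5p Ago2 KO library 2, at 4887 TPM. The same Ago2 KO library had the highest ratio of miR-183-5p to miR-96-5p of its group, 6.48. Smad4 mRNA was lowest in Ago2 KO/CLIPΔ library 1, at 11.4 TPM.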

How the results depend on the processing

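Alternatives kept direction and side of the threshold in 573 of 622 values for single members, with 24 calls lost, 17 gained and 8 reversed. The large rises of miR-96-5p, miR-96-3p and miR-182-3p and the falls of both miR-183 arms without Ago2 passed under every alternative in which they were tested, and miR-96-3p, which passed the filter only through its levels without Ago2, did so without the filter too. miR-183-3p rested on as few as 76 reads and miR-96-3p on as few as 62. The reversed values were not called, and most were near 0, with Egr1 in CLIPΔ against WT as the largest. CLIPΔ against WT with totals without let-7 and miR-98 gave 0.0823 for miR-183-5p and 0.00878 for miR-183-3p, and after median centring Mirc35hg differed by 0.00359 in CLIPΔ against WT and Ube2h by 0.0161 in Ago2 KO/CLIPΔ against Ago2 KO. Leaving out single libraries gave -0.0711 to 0.0484 for miR-183-5p in CLIPΔ against WT, -0.11 to 0.50 for the interaction of miR-96-5p, -0.36 to 0.26 for Mirc35hg, -0.0236 to 0.0327 for Nrf1 and -3.02 to 2.15 for Egr1 in CLIPΔ against WT, and -0.0278 to 0.0526 for Mirc35hg and -0.0839 to 0.0171 for Ube2h in Ago2 KO/CLIPΔ against Ago2 KO. Where 1 RNA-seq library was left in a group, it was assumed to vary like the others. The causes were not tested, apart from those in the construction of the alternative.

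Of all 507 miRNAs, without a filter 136 passed in CLIPΔ against WT, 363 in Ago2 KO against WT and 377 in Ago2 KO/CLIPΔ against CLIPΔ. In the interaction 211 passed, and 0 members among them. At a mean of at least 1000 TPM fewer were tested, and 19, 57, 78, 79 and 47 passed in CLIPΔ against WT, Ago2 KO/CLIPΔ against Ago2 KO, Ago2 KO against WT, Ago2 KO/CLIPΔ against CLIPΔ and the interaction, with 3 members in the third of these and 2 in the fourth. The number tested at this cut is not given here, so these member counts were not set against a share of all miRNAs. In the 4-group model, which tested 249 miRNAs, 115 miRNAs and 3 members passed in CLIPΔ against WT. In Ago2 KO/CLIPΔ against Ago2 KO 55 miRNAs passed in it. The 3 members included miR-96-3p, which passed the filter of that model only through its levels without Ago2. For members in CLIPΔ against WT, 2 passed after median centring, beside 60 of 227 miRNAs, and 2 with totals without the cluster, beside 65. With totals without let-7 and miR-98 0 members passed, and 0 without the trend. In the interaction 0 passed after median centring and 0 without the trend. Median centring moved the share of calls that were higher in CLIPΔ against WT from 69.8% to 53.3%, and in mRNAs of Ago2 KO/CLIPΔ against Ago2 KO from 30.6% to 50%, with 1 literature target left. In arm ratios 1 hairpin passed at a pseudocount of 10 in CLIPΔ against WT, and 47 in Ago2 KO against WT with both arms at 100 TPM or more.

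With replicate blocks 125 miRNAs and 2 members passed in CLIPΔ against WT, 3 members in the interaction, 5 hairpins in the arm ratios of CLIPΔ against WT, and in mRNAs 804 genes and 4 literature targets in Ago2 KO/CLIPΔ against Ago2 KO. In RNA-seq, WT and CLIPΔ share only a number. With 2 libraries a group, both same-numbered pairs must give the same r, 0.716, and differently numbered pairs its negative, -0.716. The block called 333 genes (2.86%) with 1 literature target, Klf4. No other call named here changed with the block beyond those given beside the results, and knockout and other libraries could not be paired, since letters and numbers do not match. Leaving out single libraries gave 48 to 70 miRNAs and 0 to 1 members in CLIPΔ against WT, 89 to 124 and 2 to 4 in Ago2 KO/CLIPΔ against Ago2 KO, 114 to 134 and 0 to 2 in the interaction, and in mRNAs 0 to 186 genes in CLIPΔ against WT, 130 to 259 genes and 0 literature targets in Ago2 KO/CLIPΔ against Ago2 KO and 4150 to 6631 genes in Ago2 KO against WT.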
